A study of Homo sapiens with 4 samples.

Results

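Peaks of N7-methylguanosine (m7G) were examined on the mRNAs of 9 endoplasmic reticulum (ER) chaperones and folding enzymes in untreated U2OS cells: HSP90B1, HSPA5, CALR, CANX, PDIA3, PDIA4, PDIA6, HYOU1 and DNAJB11. A peak belonged to a member if the gene name in its row equalled that symbol. By this rule 34 of the 9188 deposited peaks were members' peaks, 12 of 4326 in IP replicate 1 and 22 of 4862 in IP replicate 2. Each of the 9 genes had at least 1 peak in both tables, where 15.9% of 20056 annotated protein-coding genes had one in replicate 1, 17.4% in replicate 2 and 11.6% in both. They were 9 of 4340 protein-coding genes with a peak in either table. Members were chosen with earlier results of these data known.

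U2OS is a human bone osteosarcoma cell line in long use, mesenchymal in character. From its poly(A) RNA, 2 libraries were made after immunoprecipitation (IP) with an antibody to m7G, and they were set against 2 input libraries made without antibody. No group had a genetic change or a treatment. Nothing in the labels tells if replicates were grown apart, so their spread may be only technical. Each deposited peak has 1 or more blocks on the genome, an enrichment (the fold of IP over input), a p-value and its false discovery rate, all of them the authors' own values. No input or IP counts were used, so the depth behind a peak and the expression of its gene are unknown; only an expressed mRNA can yield one. Of 13 mesenchymal and osteoblast markers, 6 had a shared peak (VIM, COL1A1, COL5A1, COL6A1, SPARC and FN1), while COL1A2, RUNX2, SP7, ALPL, SPP1, IBSP and BGLAP had none in either table. None of 4 haematopoietic, 3 hepatocyte or 4 epithelial markers had a shared peak, and among them only KRT14 had a peak at all, of 2.69-fold in replicate 2.

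Proteins that enter the secretory pathway fold inside the ER. HSPA5 (BiP), an HSP70, binds unfolded chains with the help of its J-domain partner DNAJB11 and of HYOU1, which exchanges its nucleotide, and HSP90B1 (GRP94), an HSP90, acts on a narrower set of clients. The lectins CANX and CALR hold glycoproteins through their sugars, and the protein disulfide isomerases PDIA3, PDIA4 and PDIA6 form and reshuffle disulfide bonds. When unfolded protein builds up, the unfolded protein response induces these genes, in part through the ER stress element (ERSE) of their promoters. m7G is the cap at the mRNA 5′ end and has also been mapped inside mRNA, so the position of a peak along the gene is given for each member.

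The sequences at gene starts are shown because the peaks of HSP90B1, DNAJB11 and HSPA5 covered them. Below are the first 30 bases from the annotated start (RefSeq, GRCh38.p14), 5′ to 3′ on the strand of the gene, with capitals for bases that lay inside the peak in both replicates. These are chr12:103930410-103930439 (plus strand), chr3:186570720-186570749 (plus strand) and chr9:125241314-125241343 (minus strand), and all 30 bases of each were covered.
HSP90B1: AGTGGGCGGACCGCGCGGCTGGAGGTGTGA
DNAJB11: ACTCCCGGGAAGTGGACCGGCAGAAGAGGG
HSPA5: GACGCCGGCCAAGACAGCACAGACAGATTG

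The stretch before the start was searched for the elements that these genes are known for. ERSE was searched as CCAAT and CCACG separated by any 9 bases, and ERSE-II as ATTGG and CCACG separated by any 1 base, on both strands of windows from 250 bases before to 50 bases after each listed start. RefSeq windows were held for 8 of the 9 members (not PDIA3), and 5 of the 8 had ERSE in at least 1 window. Among all 35116 windows, 27 had it (0.0769%), and by gene 21 of 15843 protein-coding genes (0.133%). The string of CANX lay at 1 place, in the windows of 3 of its 4 listed starts. ERSE-II was in the window of HYOU1, 2 times, and in 19 of all windows (0.0541%). No window of DNAJB11 or PDIA4 held either string. The strings are shown in the orientation of the element, with its fixed bases in capitals, for comparison of the spacer between genes.
HSP90B1, distal: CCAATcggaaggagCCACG
HSP90B1, proximal (opposite strand): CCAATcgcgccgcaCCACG
HSPA5: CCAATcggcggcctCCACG
CALR (opposite strand): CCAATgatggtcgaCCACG
CANX: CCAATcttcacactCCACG
PDIA6: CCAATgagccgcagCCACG
HYOU1, both copies (ERSE-II, opposite strand): ATTGGaCCACG

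The 250 bases before the annotated start are given for HSP90B1 (chr12:103930160-103930409, plus strand) and HSPA5 (chr9:125241344-125241593, minus strand), whose peaks reached the start, with ERSE strings in capitals.
HSP90B1: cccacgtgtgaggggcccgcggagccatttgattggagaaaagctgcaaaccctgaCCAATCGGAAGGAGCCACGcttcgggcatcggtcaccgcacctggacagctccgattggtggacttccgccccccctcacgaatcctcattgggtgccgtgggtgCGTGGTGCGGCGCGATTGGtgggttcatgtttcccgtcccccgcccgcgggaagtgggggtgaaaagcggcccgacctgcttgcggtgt
HSPA5: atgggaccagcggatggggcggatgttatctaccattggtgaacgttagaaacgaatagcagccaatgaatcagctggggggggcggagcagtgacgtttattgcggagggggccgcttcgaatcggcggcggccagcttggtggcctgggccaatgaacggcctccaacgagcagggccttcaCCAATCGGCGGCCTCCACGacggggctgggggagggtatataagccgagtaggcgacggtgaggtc

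In HSP90B1 the proximal string began 89 nt before the start, and the m7G peak began 46 nt before it. In HSPA5 the string began 66 nt before the start and the peak 14 nt before it. No ERSE string of these 2 genes therefore lay in a peak. The PDIA6 string belonged to a listed start at 10812785 on chromosome 2, and not to the outermost start near which its peak had a block. A match is a string in the window and is no evidence that a factor binds there. Only exact strings were searched, so a copy with a changed base was not counted. A window without a match may still hold such a copy. None of the other 16 protein-coding genes with ERSE, XBP1, CRELD2 and ERO1B among them, had a shared peak, and of 14 other genes with ERSE-II 4 had one. Over all protein-coding genes the share was 10.5%, and both counts are too small to be read against it. XBP1 had a peak of 1.69-fold in replicate 2 alone, and CRELD2 had 1 of 1.9-fold in replicate 1 alone.

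Shared peaks were found on all the chaperones. Peaks of the replicates were called shared where their blocks had 1 bp or more in common on 1 strand, and mutually best overlaps were paired. All 9 members had a shared peak, where 10.5% of 20056 annotated protein-coding genes had one, and 48.4% of the genes with a peak in either table. Because of how the members were chosen, this count is a description and no test of ER chaperones as a class. Of the members' peaks, 12 of 12 in replicate 1 and 12 of 22 in replicate 2 overlapped the other table. Over all genes, 62.6% of replicate 1 peaks and 55.9% of replicate 2 peaks did. HSP90B1, CALR and PDIA3 had 2 shared peaks each, and over all genes 19.9% of those with a shared peak had more than 1. Of the 12 pairs, 6 had the same lower and 4 the same higher coordinate in both tables, and the peaks of HSP90B1 at the start and of PDIA6 had both. Over all shared peaks, 30.7% had the same lower and 28.9% the same higher coordinate, and 10.2% had both.

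**Figure D1:**
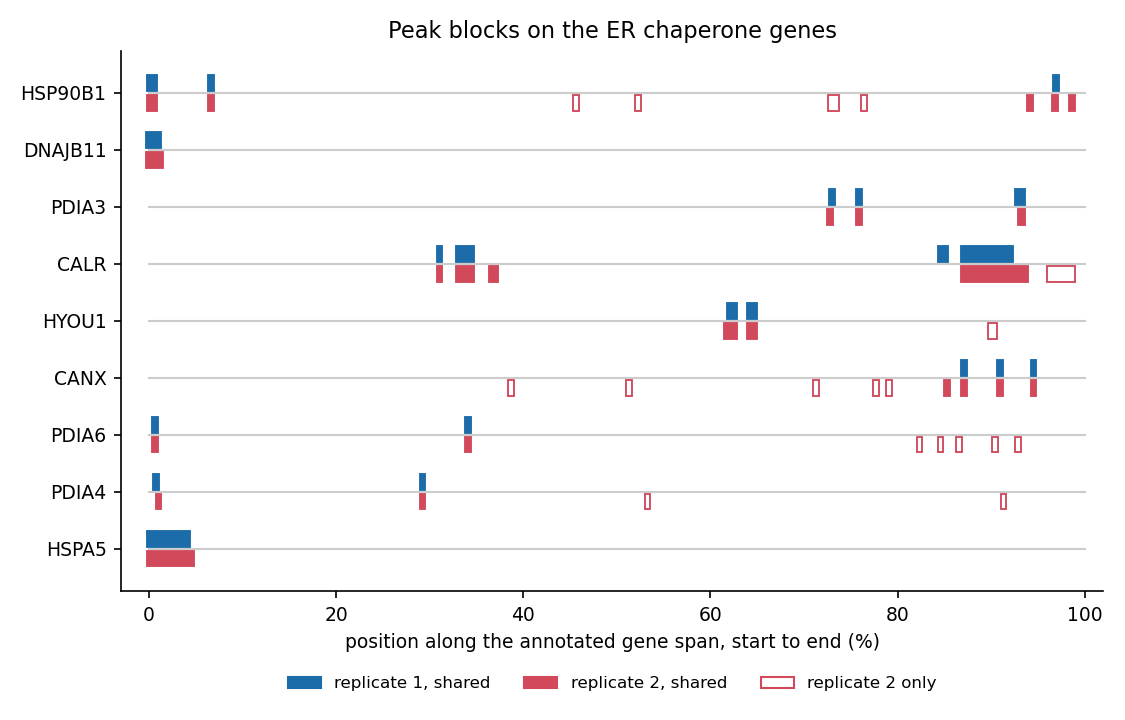
Blocks of every m7G peak on the 9 ER chaperone genes, by position along the annotated gene span from start to end in percent (x axis), with IP replicate 1 above and replicate 2 below each gene line. Filled blocks belong to shared peaks and open blocks to peaks of replicate 2 alone, and blocks are drawn at least 0.6% of the span wide; HSP90B1, DNAJB11 and HSPA5 have a shared peak over the start, and the strongest peaks of CALR and PDIA3 lie toward the end.

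Among the HSP90 and HSP70 chaperones, HSP90B1 had the highest fold of both replicates. Its peak at the start reached 6.58-fold in replicate 1 and 6.30-fold in replicate 2, with log10 p of -18.9 and -23. It lay on chromosome 12 from 103930364 to 103931618, plus strand, as blocks of 201 and 98 nt in both tables, and the middle of the joined blocks was 103 nt from the annotated start. The first block also covers the annotated hairpin of MIR3652, chromosome 12 from 103930425 to 103930555 on the same strand, and reads of the mRNA and of the miRNA precursor cannot be told apart here. The mature miRNA of that hairpin is shown with its seed in capitals because it overlaps the stretch of HSP90B1 printed above.
hsa-miR-3652: cGGCUGGAggugugagga

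A second shared peak of HSP90B1 lay toward the gene end and was weak. In replicate 1 it was 60 nt long with 1.14-fold enrichment and log10 p of -4, and in replicate 2 it was 270 nt long with 1.77-fold enrichment and log10 p of -47.8. Replicate 2 alone had 2 further peaks inside the gene, of 1.51-fold and 1.49-fold. In both tables the fold was higher at the start than at any other peak of this mRNA.

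HSPA5, the central HSP70 of the ER, had a single peak in each table, at its start and of low fold. The fold was 1.72 in replicate 1 and 1.74 in replicate 2, with log10 p of -9.01 and -8.65. The peak was 1 block on chromosome 9, minus strand, from 125241059 to 125241357 in replicate 1 (299 nt) and from 125241029 in replicate 2 (329 nt). Its middle was 135 and 150 nt from the start. HSPA5 thus had a peak over its start, as HSP90B1 did, at a lower fold in both tables.

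DNAJB11 (ERdj3), a J-domain partner of HSPA5, also had 1 peak in each table, over its start. Its fold was 7.93 in replicate 1 and 4.55 in replicate 2, with log10 p of -12.1 and -19.7. The peak was 1 block on chromosome 3, plus strand, from 186570676 to 186570913 in replicate 1 and to 186570943 in replicate 2, with its middle 74 and 90 nt from the start. The gap between replicates, 0.80 on the log2 scale, was the widest of the 12 shared peaks, and 86.0% of all shared peaks had a smaller one.

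HYOU1 (GRP170), a large HSP70-like protein, had its shared peak inside the gene and not at the start. The fold was 2.51 in replicate 1 and 2.54 in replicate 2, with log10 p of -14.3 and -17. The peak had 2 blocks on chromosome 11, minus strand, from 119048740 to 119049169 in replicate 1 and to 119049199 in replicate 2, and its middle was 8185 and 8170 nt from the start. Replicate 2 alone had a further peak of 1.67-fold nearer the end, which the annotated span of HYOU1-AS1 also covers. No peak lay within 200 nt of the annotated start of HYOU1 in either table.

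The lectins had their strongest peaks in the last part of the gene. CALR, the soluble lectin, had 3.13-fold enrichment in replicate 1 and 3.24-fold in replicate 2 on chromosome 19, plus strand, from 12943571 to 12944042 and from 12943714 to 12944132. Its middle was 641 and 566 nt from the annotated gene end. With log10 p of -157 and -179 it ranked 20 of 4326 peaks by significance in replicate 1 and 25 of 4862 in replicate 2, while its fold was below the median of both tables. A second shared peak, 33.5% and 34.0% of the way along the span by its middle, had 1.31-fold and 1.34-fold enrichment, and replicate 2 alone had a peak of 1.31-fold close to the end.

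CANX, the membrane-bound lectin, had a shared peak of 1.79-fold in replicate 1 and 2.30-fold in replicate 2. It had 3 blocks from 179724657 to 179728593 in replicate 1 and 4 blocks from 179723690 to 179728653 in replicate 2, on chromosome 5, plus strand. Replicate 2 alone had 2 further peaks. That of 1.98-fold began 22 nt after a listed RefSeq start, although 20333 nt after the outermost annotated start, and the other had 1.43-fold.

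PDIA3 (ERp57), the disulfide isomerase that works with both lectins, had the highest fold of the 3 PDIA genes among the members. Its peak near the end reached 4.29-fold in replicate 1 and 3.73-fold in replicate 2, with log10 p of -8.37 and -6.44. It lay on chromosome 15, plus strand, from 43771289 to 43771558 in replicate 1 and from 43771379 to 43771558 in replicate 2, 1854 and 1810 nt from the annotated end by its middle. A second shared peak upstream had 1.80-fold and 2.33-fold enrichment. The first peak of PDIA3 began 19510 nt after the annotated start in replicate 1 and 19450 nt after it in replicate 2, and none was found in a single replicate.

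PDIA4 (ERp72) and PDIA6 (P5), other disulfide isomerases, had shared peaks split between a short block near the start and a block further in. PDIA4 had 2.06-fold enrichment in replicate 1 and 1.75-fold in replicate 2 on chromosome 7, minus strand, from 149021010 to 149028392 and to 149028332. The block nearer the start was 72 and 12 nt long, and it lay 113 and 173 nt from the outermost annotated start. PDIA6 had 2.25-fold enrichment in replicate 1 and 1.73-fold in replicate 2 on chromosome 2, minus strand, from 10819303 to 10837531. Its blocks of 52 and 8 nt were the same in both tables, and the shorter lay 181 nt from the outermost start. Each of these genes had 2 further peaks in replicate 2 alone, at 1.87-fold and 1.40-fold on PDIA4 and at 1.25-fold and 1.37-fold on PDIA6.

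By the middle of the joined blocks, 3 of the 12 shared peaks lay within 200 nt of the annotated start in both replicates (HSP90B1, DNAJB11 and HSPA5), where 20.6% of all shared peaks on protein-coding genes did. By the nearest block it was 5 of 12, with PDIA4 and PDIA6 added, against 32% of all. The share near the start was thus close to the background by either rule, and the start peaks included the members with the highest and the lowest fold. Annotation of exons and coding parts was not used.

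**Figure D2:**
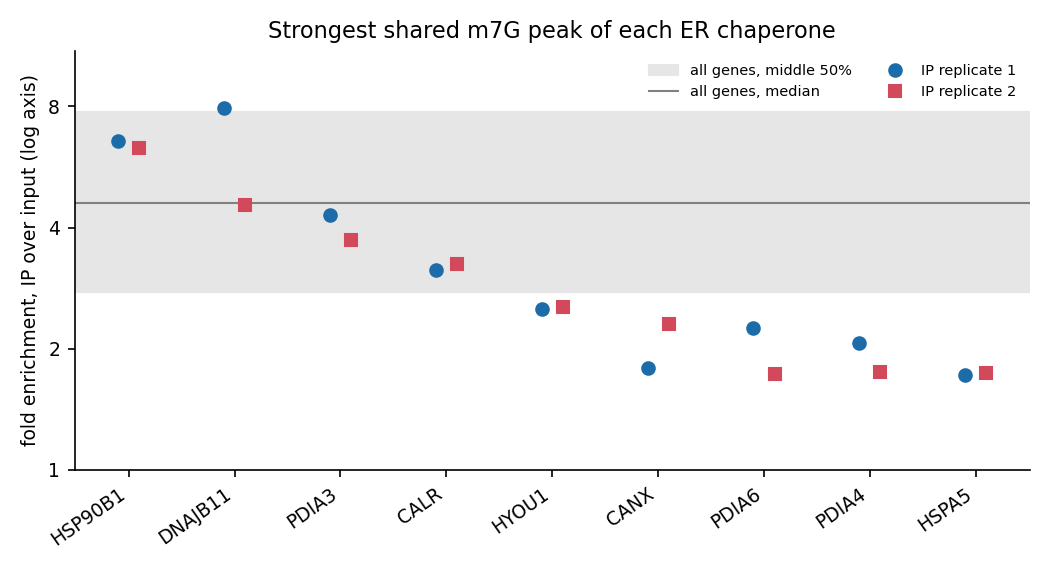
Fold enrichment of IP over input (y axis, log scale) of the strongest shared peak of each ER chaperone (x axis, in descending order of the mean log2 fold), with circles for IP replicate 1 and squares for replicate 2. The grey band holds the middle 50% and the line the median of all 2099 protein-coding genes with a shared peak; HSP90B1 lies above the line in both replicates, and HYOU1, CANX, PDIA6, PDIA4 and HSPA5 lie below the band.

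The strongest shared peaks of most chaperones were of low fold. Ordered by the mean log2 fold of both replicates, HSP90B1 (2.69) came first, then DNAJB11 (2.59), PDIA3 (2.00), CALR (1.67) and HYOU1 (1.34). CANX (1.02), PDIA6 (0.98), PDIA4 (0.93) and HSPA5 (0.79) followed. The members' median was 1.34, a 2.52-fold enrichment, against 2.20, or 4.60-fold, for all 2099 protein-coding genes with a shared peak (quartiles 1.47 and 2.95). Of the 9 members, 7 lay below that median and 5 below the lower quartile. HSP90B1 exceeded 67.4% of these genes, and HSPA5 exceeded 7.43%. HSP90B1 and DNAJB11, 2 of 9 members, had at least 4-fold enrichment in each replicate. Of the genes with a shared peak 49.3% did, or 5.16% of all protein-coding genes.

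Differences between replicates give a rough measure of how far this order can be read. Over all 2651 shared peaks, the absolute log2 difference between replicates had a median of 0.30 and a 95th percentile of 1.28, a factor of 2.42. Over the members' 12 shared peaks its median was 0.22. Neighbours in the order differed by at most 0.59 and so by less than that 95th percentile. Of the 36 pairs of members, 9 differed by more: HSP90B1 against HYOU1, CANX, PDIA6, PDIA4 and HSPA5, and DNAJB11 against the last 4 of these. That percentile is of differences between single replicates over all genes, while the order is by means of both replicates. The 2 measures are unlike, so the percentile is not the error of the order. With 2 replicates no permutation test of a single gene is informative, and none was run.

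**Figure D3:**
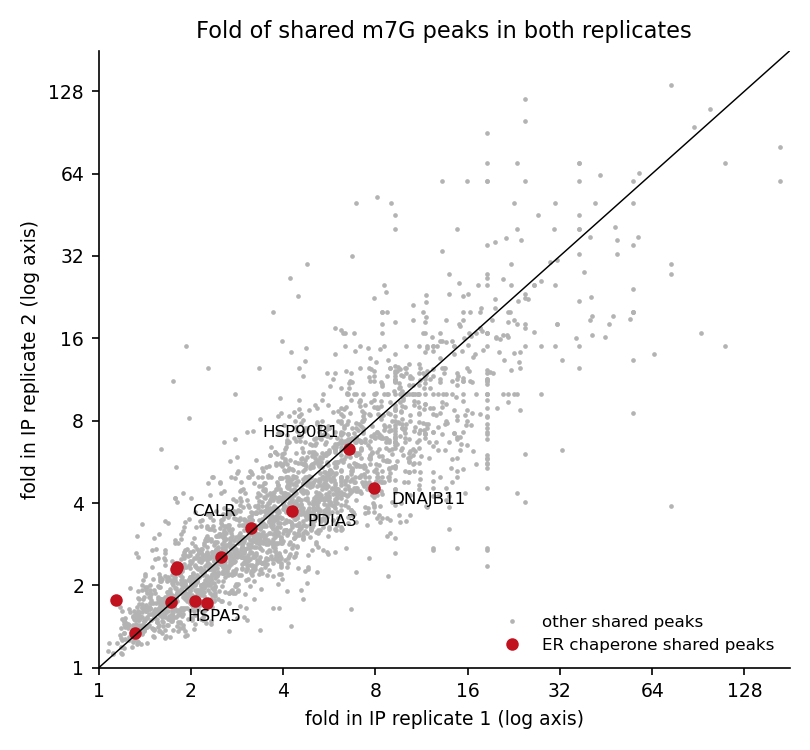
Fold enrichment in IP replicate 1 (x axis) and replicate 2 (y axis) of all 2651 shared peaks, on log scales, with the 12 ER chaperone peaks in red and equal folds on the diagonal. The peaks of HSP90B1, CALR and HSPA5 lie near the diagonal, DNAJB11 lies below it, and the weak second peak of HSP90B1 lies above it at the lower left.

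The chaperone peaks combined low fold with high significance. In replicate 1, 9 of 12 had a fold below the table's median of 4.27, and 11 of 12 had a log10 p below its median of -5.67. In replicate 2, 19 of 22 had a fold below the median of 3.48, and 18 of 22 had a log10 p below -5.92. The members' own medians were 2.16-fold with log10 p of -10.6 in replicate 1, and 1.75-fold with log10 p of -10.5 in replicate 2. Read counts behind these peaks were not used, and the part of depth in this pattern was not tested.

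**Figure D4:**
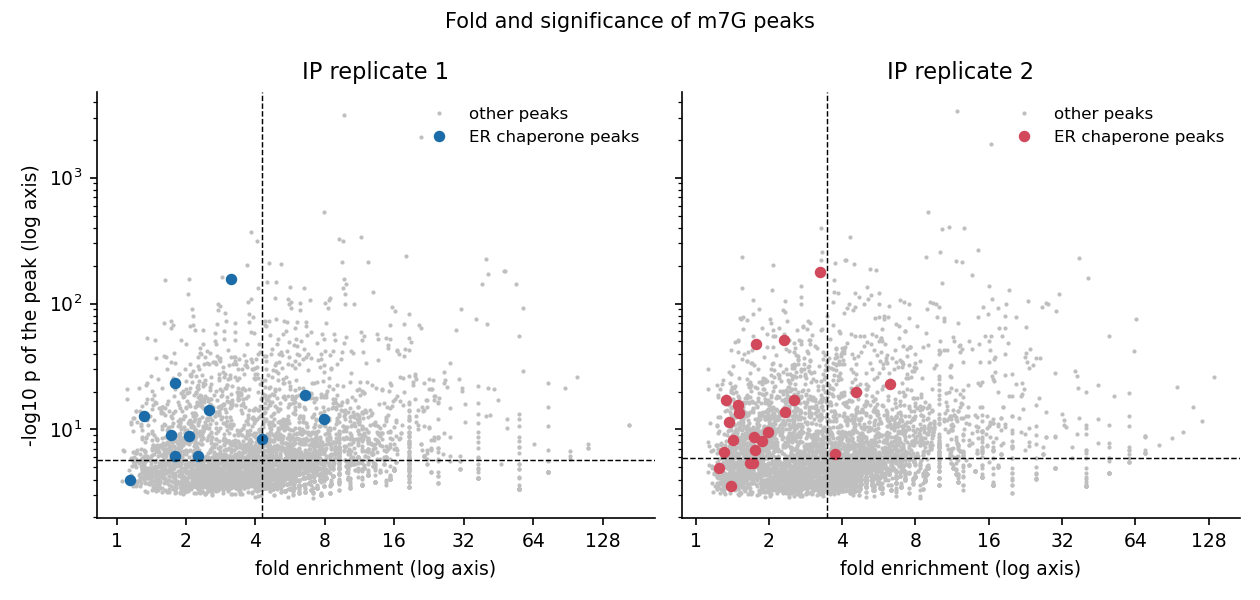
Fold enrichment (x axis, log scale) and -log10 p (y axis, log scale) of every deposited peak in IP replicate 1 (left) and replicate 2 (right), with ER chaperone peaks in colour and dashed lines at the medians of each table. Most coloured points lie in the upper left, at a fold under 4.27 in replicate 1 or 3.48 in replicate 2 and above the median significance, with CALR highest.

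The 10 peaks found in replicate 2 alone lay on 6 members (HSP90B1, CALR, CANX, PDIA4, PDIA6 and HYOU1). Their folds were between 1.25 and 1.98, with a median of 1.46. Over all genes, peaks of replicate 2 without an overlap had a median fold of 3.05 and a median log10 p of -4.5. Of the 10 members' peaks, 7 were more significant than the median of the whole table, against 23.4% of all such peaks. The weakest false discovery rate of any listed peak was 0.0490 in replicate 1 and 0.0479 in replicate 2. Peaks past the authors' threshold alone are listed, so a weaker enrichment in replicate 1 would not be seen.

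Peaks of 2 or more blocks, which bridge a gap in the genome such as an intron, were frequent on these genes. They made up 8 of 12 members' peaks in replicate 1 and 14 of 22 in replicate 2, against 30.8% and 34.7% of all peaks. The members' peaks had a median length of 224 and 195 nt over their blocks, against 151 nt for all peaks in both tables.

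The genes most like HSP90B1, the member with the highest lower fold, were sought by the distance between log2 folds of the strongest shared peak over the 2 replicates. They were JUND, an AP-1 transcription factor (6.64 and 6.23), CNOT11, a subunit of the CCR4-NOT deadenylase (6.43 and 6.24), and FZD1, a Wnt receptor (6.61 and 6.13), at distances of 0.021, 0.036 and 0.040. Likeness over 2 values is a description of these folds only.

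The other genes of ER protein folding were counted in the same way. Of 98 genes in 7 lists, 30 had a shared peak (30.6%), against 10.5% of all protein-coding genes, and their strongest peaks had a median of 3.46-fold. The 10.5% is a share of all annotated genes, expressed in U2OS or not, and the part of expression in this gap was not tested. The 9 chaperones had 9 of 9 with a median of 2.52-fold, and the difference was not tested. Both the members and the lists were chosen with earlier results of these data known.

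Among the other disulfide isomerases and ER oxidation enzymes, 6 of 20 had a shared peak. ERO1A, the oxidase that recharges the isomerases, had 6.77-fold enrichment in replicate 1 and 6.14-fold in replicate 2. TXNDC11 had 8.10 and 5, ERP29 had 2.53 and 3.33, and TXNDC5 had 4.31 and 5.29, where the span of BLOC1S5-TXNDC5 also covers the peak. ERO1A, TXNDC11, ERP29 and TXNDC5 had higher folds than both PDIA4 and PDIA6 in both tables, and the rest of the 6 did not. By mean log2 fold, PDIA4 exceeded 10.5% and PDIA6 11.6% of all protein-coding genes with a shared peak.

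A broad list held partners of HSPA5 and other ER folding genes, not all of them HSP70 or J-domain proteins. Of this list, 5 of 15 had a shared peak, with a median of 9.22-fold. SEC63, the translocon's J-domain protein, had the highest fold of these lists, 74 in replicate 1 and 27.5 in replicate 2. These differed by more than a factor of 2.42, the 95th percentile between replicates over all shared peaks. Other genes had the same 74-fold in replicate 1, and the reads behind such a fold are unknown. MANF, a secreted ER stress protein, had 24.7 and 15, SDF2L1, a component of HSPA5 complexes, 11.5 and 7.39, and CRELD1 3.78 and 3.21. SEC63, MANF and SDF2L1 had higher folds than HSPA5, HYOU1 and HSP90B1 in both replicates.

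In the calnexin cycle and glycan processing, 3 of 11 had a shared peak: PRKCSH, the beta subunit of glucosidase II (5.26 and 6.90), its alpha subunit GANAB (2.86 and 2.90) and the lectin MLEC (3.98 and 5.88). The collagen chaperone SERPINH1 (6.36 and 16.7) and the prolyl isomerases FKBP2 (4.87 and 3.67, where the span of LOC114841035 also covers the peak), PPIB (2.81 and 2.71) and FKBP10 (2.35 and 5.00) were among 5 of 9 in their list. The folds of SERPINH1 also differed by more than a factor of 2.42 between replicates. ER-associated degradation had 7 of 19, with RNF5 (10.1 and 10), NPLOC4 (8.64 and 6.92), MARCHF6 (3.64 and 3.63, where the span of MIR10397 also covers the peak) and OS9 (3.14 and 3.58) the highest, ranked on whichever replicate was lower. The translocon had 2 of 10, TRAM1 (2.43 and 2.89) and SSR2 (1.38 and 1.53).

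The sensors and factors of the unfolded protein response had the lowest share of the lists, 2 of 14 (14.3%). This was near the 10.5% of all protein-coding genes. With the translocon at 2 of 10, the order of such short lists rests on few genes. ATF6B, a paralogue of ATF6, had a shared peak of 2.78-fold in replicate 1 and 10-fold in replicate 2. These folds differed by more than a factor of 2.42, the 95th percentile between replicates, and log10 p in replicate 1 was -3.97. ATF4, the factor made under the integrated stress response, had 1.41 and 1.64. EIF2AK3 (PERK) had a peak of 11.6-fold in replicate 1 alone, and DDIT3 (2.5), PPP1R15A (2.27) and XBP1 (1.69) had one in replicate 2 alone. ERN1, ERN2, ATF6, MBTPS1, MBTPS2, CREB3, CREB3L1 and CREB3L2 had no peak in either table.

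**Figure D5:**
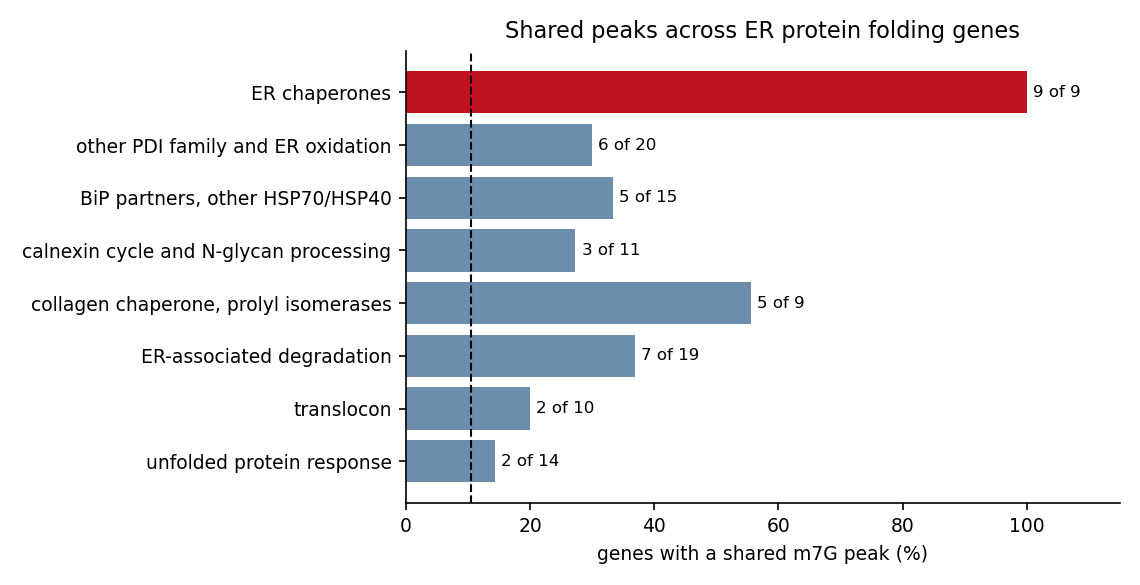
Share of genes with a shared m7G peak (x axis, percent) in the 9 ER chaperones (red, top) and in 7 other lists of ER protein folding genes (blue), with the number of genes beside each bar and a dashed line at the 10.5% of all protein-coding genes. The chaperones stand at 9 of 9, the other lists between 2 of 14 and 5 of 9.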

How the data were processed

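m7G immunoprecipitation was measured in 2 IP libraries of U2OS poly(A) RNA against 2 input libraries, which enter only through the authors' peak calls. The submitters' processing notes name STAR and GRCh38; the sources used here do not give the peak caller. Per the file headers, each deposited table (1 for each IP replicate, not pooled) gives a fold enrichment (a linear ratio), a p-value, and log10 values of p and of the false discovery rate, treated here as a score. Scaling of the fold for depth is not stated and depth is unknown, so single folds have no interval.

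Members were matched by exact gene name and other genes by RefSeq symbol or synonym within 2000 nt. Strands had to match, and mutually best overlaps of at least 1 bp were kept as pairs. Positions are 1-based, and distances run from the middle base of the joined blocks. Values are descriptions: with 1 table for each of 2 replicates, no test was made. Named genes are all 9 members, up to 4 genes with a shared peak for each other list by the lower fold, all unfolded protein response genes, and the 3 genes nearest to the leading member. Members and lists were chosen with earlier results of these data known. The overlap search was tested on simulated data. Alternatives were other overlap rules, stricter peaks, each replicate left out and other distance rules. Python 3.11.15, numpy 2.4.6, pandas 2.3.3 and matplotlib 3.10.9 were used.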

Additional observations from a re-analysis of the deposited data

How the results depend on the processing

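All 9 chaperones kept a shared peak with 50% reciprocal overlap, with midpoints within 100 nt, and with strand ignored, and 8 did among peaks past the median significance of each table, where PDIA6 was lost. Where both replicates had to reach a fold of 4, 2 members (HSP90B1 and DNAJB11) and 2 of their shared peaks were left. The members' peaks numbered between 12 and 22 with 1 replicate left out, the higher count being replicate 2 alone, that is, without replicate 1. Of the 98 other ER genes, 23 had a shared peak with 50% reciprocal overlap, against 30 by the main rule. Among them, 16 had a shared peak past the median significance of both tables and 10 with a fold of at least 4, fewer by construction. Members' shared peaks near the start numbered 5 by the nearest block, also 5 when any listed RefSeq start counted (a rule chosen after seeing the data), and 3 by the middle within 500 nt. The members' median log2 fold was between 1.04 and 1.5 over its alternatives. No paired analysis was possible because each IP replicate has a single peak table and the input libraries have no file here. Without counts, depth limits every fold, and peaks below the authors' threshold are not listed.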
